A study of Rattus rattus with 24 samples.

Results

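Enzymes that modify drugs, steroids and reactive lipids were examined in cultured rat oligodendrocyte precursor cells (OPCs) treated with thyroid hormone, with the antipsychotic quetiapine or with both. The set held every gene whose probe set in the array annotation carried a single symbol of the P450 families Cyp1 to Cyp4, the glutathione S-transferases (Gst), the UDP-glucuronosyltransferases (Ugt) or the sulfotransferases (Sult). This gave 84 of 14217 annotated genes, made up of 42 Cyp, 20 Gst, 8 Ugt and 14 Sult genes. A gene with several probe sets was represented by the probe set with the highest mean signal, a choice that arose for 7 of the 84. The rule used names only, so neither the level nor the change of a gene chose it.

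P450 enzymes of these families insert oxygen into drugs, steroids and fatty acids, and receive electrons from the P450 reductase Por. Glutathione S-transferases join glutathione to reactive compounds, among them products of lipid peroxidation. Sulfotransferases and UDP-glucuronosyltransferases attach sulfate or glucuronic acid to steroids, thyroid hormone, neurotransmitters and drugs, which makes them water soluble. The classical site of all these reactions is the liver, where nuclear receptors such as Nr1i2 (PXR) and Nr1i3 (CAR) control many of the genes. In human liver quetiapine is cleared mainly by enzymes of the CYP3A subfamily.

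OPCs are the glial progenitors that become myelinating oligodendrocytes. They were selected with A2B5 magnetic beads from the cerebral cortices of Sprague Dawley rat pups 4 to 7 days old, expanded with PDGF and then treated for 48 or 96 hours. The 8 groups of 3 arrays were vehicle control, 45 nM triiodothyronine (T3), 1 μM quetiapine and both compounds (the combination), each at 48 and at 96 hours. All groups received DMSO and, by the study's methods, a medium with insulin, progesterone, hydrocortisone, N-acetyl cysteine and the B27 supplement, which itself carries some T3, so that no group was free of steroid or of T3. Each of 3 biological replicates supplied a culture to every group. The deposited labels name the organism as Rattus rattus, and the annotation is that of a rat genome array.

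Values are deposited log2 signals after RMA, in which a difference of 1 is a doubling of the signal. Array medians lay between 6.43 and 6.51. Probe sets differ in affinity, so a signal places a gene relative to the array median but does not rank genes by amount of RNA, and a probe set below that median may read mostly background. Changes were tested with limma in the 12 arrays of a time, with p values adjusted over the 31042 probe sets tested. "Rose" and "fell" are used at an adjusted p under 0.05. The arrays of a replicate number deviated together, so a second fit was made in which the replicate was a fixed term (the block). Its outcome is given with the counts and for part of the single changes. A change given without it may still pass with the block. In these cultures all 6 measured OPC markers and all 3 lineage markers (Olig1, Olig2 and Sox10) lay above the array median in their mean. Of 10 astrocyte markers Slc1a2 (5.97) and Gjb6 (3.40) lay below the median in their mean. The others lay above it, with mean signals of 13.26 for Gfap and 12.11 for Aqp4 among them. Of 6 hepatocyte markers only Ttr lay above the median, and Alb, Apoa1, Serpina1, Fgb and Tat lay below it.

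Most of the enzymes gave signals below the array median. Only 23 of the 84 (27.4%) had a mean above it, compared with 65.5% of all 14217 genes. Signals were above the median on all 24 arrays for 17 genes, below it on all 24 for 56, and on both sides for 11. Of the glutathione S-transferases 13 of 20 lay above the median, compared with 7 of 42 P450 genes, 3 of 14 sulfotransferases and 0 of 8 Ugt genes. Against the higher median of probe sets with a single symbol, 17 rather than 23 genes lay above.

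**Figure D1:**
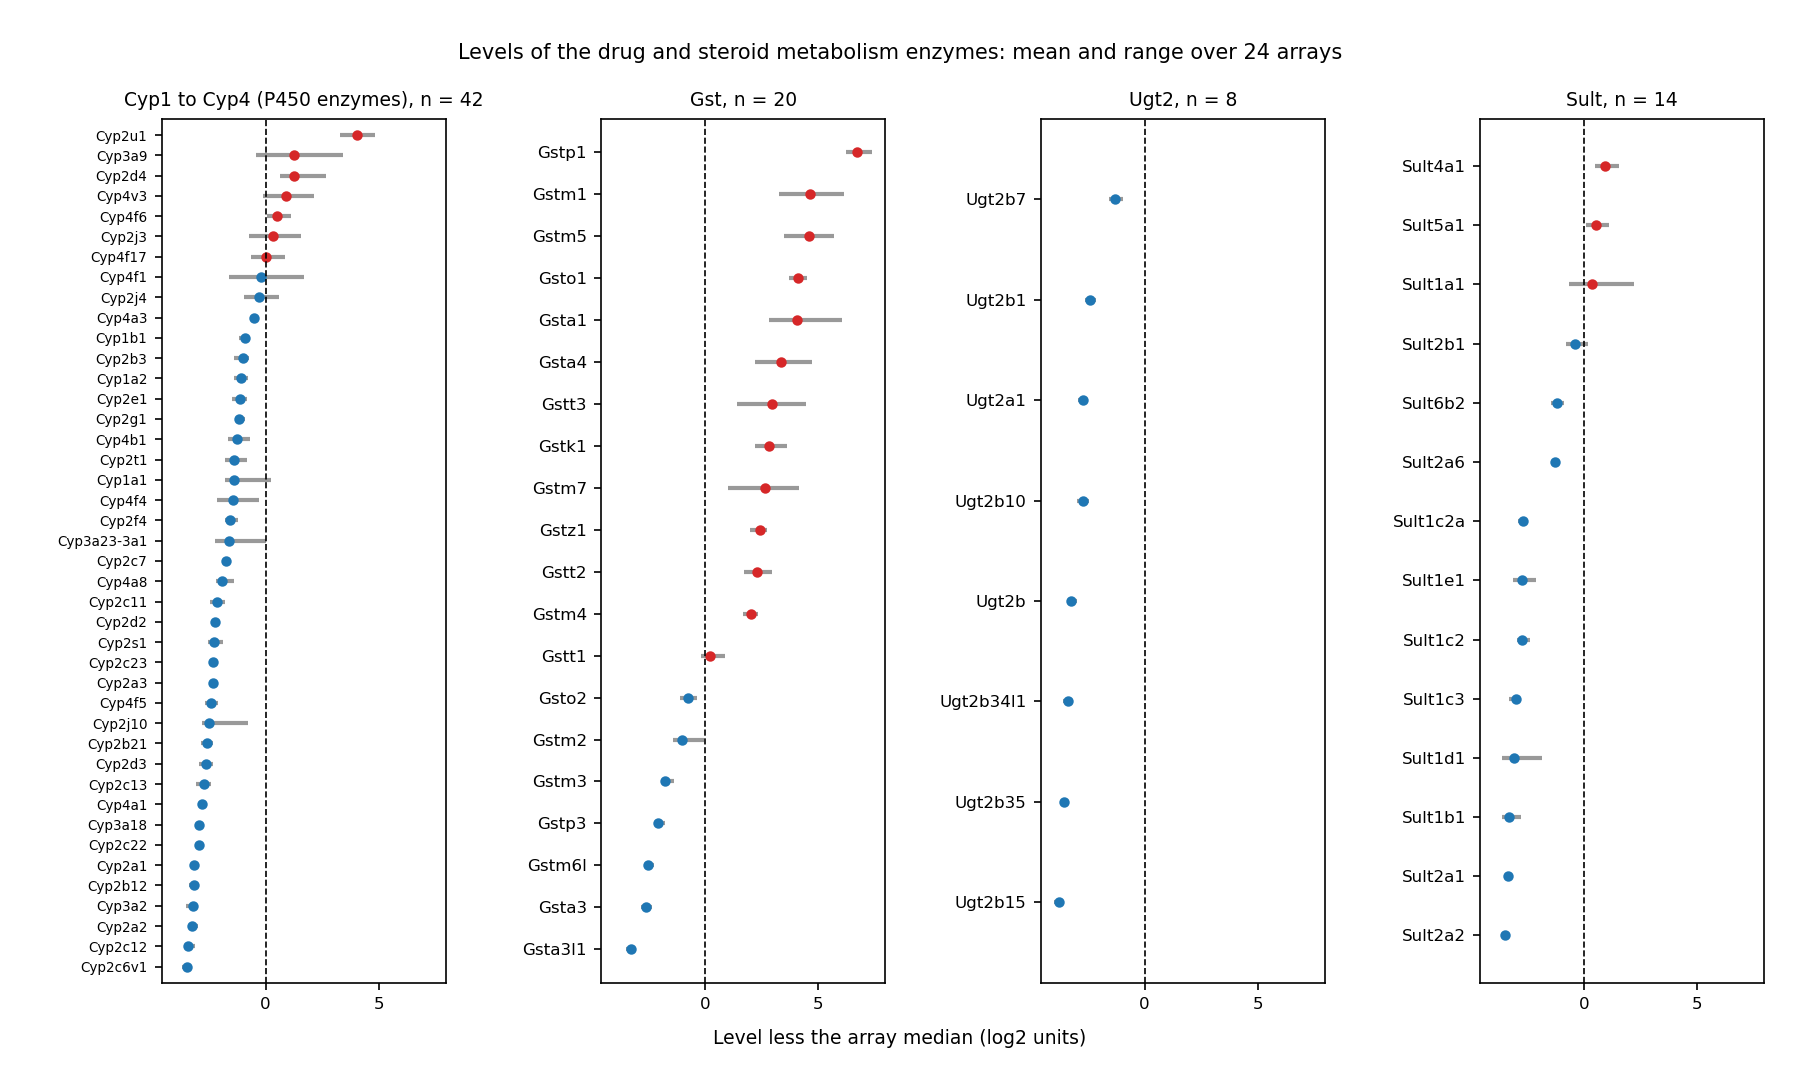
Level of each of the 84 enzymes as its log2 signal less the median of the array, by family (points, mean of 24 arrays; grey bars, lowest to highest array; red, mean above the median; blue, mean below). Gstp1, Gstm1, Gstm5, Gsto1, Gsta1 and Cyp2u1 lie farthest to the right, and most P450, Ugt and Sult genes lie to the left with narrow ranges.

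The strongest signals belonged to glutathione S-transferases. Gstp1, the pi class enzyme, had a mean of 13.17, which is 6.70 above the array median and at percentile 99.5 of all genes. Gstm1 (11.08) and Gstm5 (11.05) of the mu class followed. Next came Gsto1 (10.55), an omega class enzyme that reduces dehydroascorbate and arsenic compounds, and Gsta1 (10.51) and Gsta4 (9.84) of the alpha class, the latter known for conjugating 4-hydroxynonenal. Gstt3 (9.40), Gstk1 (9.27), Gstm7 (9.12), Gstz1 (8.88), Gstt2 (8.77) and Gstm4 (8.49) lay between 2.02 and 2.93 above the median.

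Among the P450 genes Cyp2u1, a hydroxylase of arachidonic acid and other long fatty acids that is known from brain, stood apart at 10.53. Cyp3a9 (7.72) and Cyp2d4 (7.71), rat members of the CYP3A and CYP2D subfamilies, came next, followed by Cyp4v3 (7.36), Cyp4f6 (6.97), Cyp2j3 (6.81) and Cyp4f17 (6.48). The sulfotransferases above the median were Sult4a1 (7.37), a brain form without a well defined substrate, Sult5a1 (6.98) and the phenol sulfotransferase Sult1a1 (6.80). The next sulfotransferase, Sult2b1, had a mean of 6.06. The Ugt2 genes were led by Ugt2b7 (5.15), Ugt2b1 (4.06), Ugt2a1 (3.76) and Ugt2b10 (3.74), all below the median on every array. The Ugt1 genes, which share their last exons, were represented by 2 probe sets that each named 8 Ugt1a genes and were therefore not members. Their means were 9.09 and 7.64, and they cannot be assigned to any Ugt1a gene.

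The remaining P450 subfamilies read low throughout. All 3 Cyp2a genes lay between 3.24 and 4.15, all 3 Cyp2b genes between 3.30 and 5.48, all 7 Cyp2c genes between 2.99 and 4.71 and all 3 Cyp4a genes between 3.68 and 5.98. The same held for Cyp2e1 (5.35), Cyp2f4 (4.92), Cyp2g1 (5.28), Cyp2s1 (4.19) and Cyp2t1 (5.09). Among these genes only Cyp2c12 passed the test for any difference among the 8 groups. Some of these genes have near-identical relatives, and 8 probe sets that named a gene of the rule together with another, such as Cyp2a1 with Cyp2a2 and Cyp2b1 with Cyp2b2, were not assigned. A single-symbol probe set may still share signal with a relative.

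Across the 8 groups 28 of the 84 enzymes (33.3%) passed a test for any difference, compared with 43.7% of all genes (40 enzymes and 60.2% of genes with the replicate block). The share followed the level. Of the 23 enzymes above the array median 13 passed (22 with the block), beside 58.2% of all genes above it (77.8% with the block). Of the 61 enzymes below the median 15 passed (18 with the block), beside 16.2% of all genes below it (26.9% with the block). The distance between the highest and the lowest group mean had a median of 1.15 on the log2 scale in the 23 and 0.22 in the 61. The group means spanned more than 1 for 19 enzymes.

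At 48 hours no enzyme passed the test against control under any treatment, against a background of 1.06% of genes higher and 0.366% lower with T3, 0.134% and 0.0492% with quetiapine, and 3.12% and 4.22% with the combination. At an unadjusted p under 0.05 there were 7, 7 and 13 enzymes. The share of all genes at an unadjusted p was not counted here or in later comparisons. Such counts therefore cannot be set against a background. With the replicate block 4 rose and 3 fell with T3, 0 rose and 4 fell with quetiapine, and 6 rose and 10 fell with the combination. The backgrounds with the block were 5.44% and 7.51%, 1.86% and 2.76%, and 10.8% and 16.2%.

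At 96 hours 2 enzymes rose and 2 fell with T3, 3 rose and 2 fell with quetiapine, and 7 rose and 9 fell with the combination. The background was 6.58% of genes higher and 8.08% lower with T3, 4.21% and 3.04% with quetiapine, and 15.2% and 20% with the combination. For the combination the 61 enzymes below the array median held 5 rises and 4 falls, beside 7.66% and 6.66% of genes below it, and the 23 above it held 2 rises and 5 falls, beside 19.1% and 27% of genes above it. With the block the counts were 8 and 6 (background 11.9% and 18.2%), 5 and 16 (8.96% and 12.5%), and 8 and 16 (19.9% and 27.6%). In all 18 enzymes passed in at least 1 of the 6 comparisons with control. This compares with 38% of all genes. Of the 18 enzymes 8 rose, 10 fell and 0 did both (16.7%, 21.2% and 0.141% of genes), and the comparisons share their control arrays. The median change of the 84 was 0.04 with T3 (all genes, -0.02), -0.02 with quetiapine (all genes, -0.01) and 0.03 with the combination (all genes, -0.01).

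**Figure D2:**
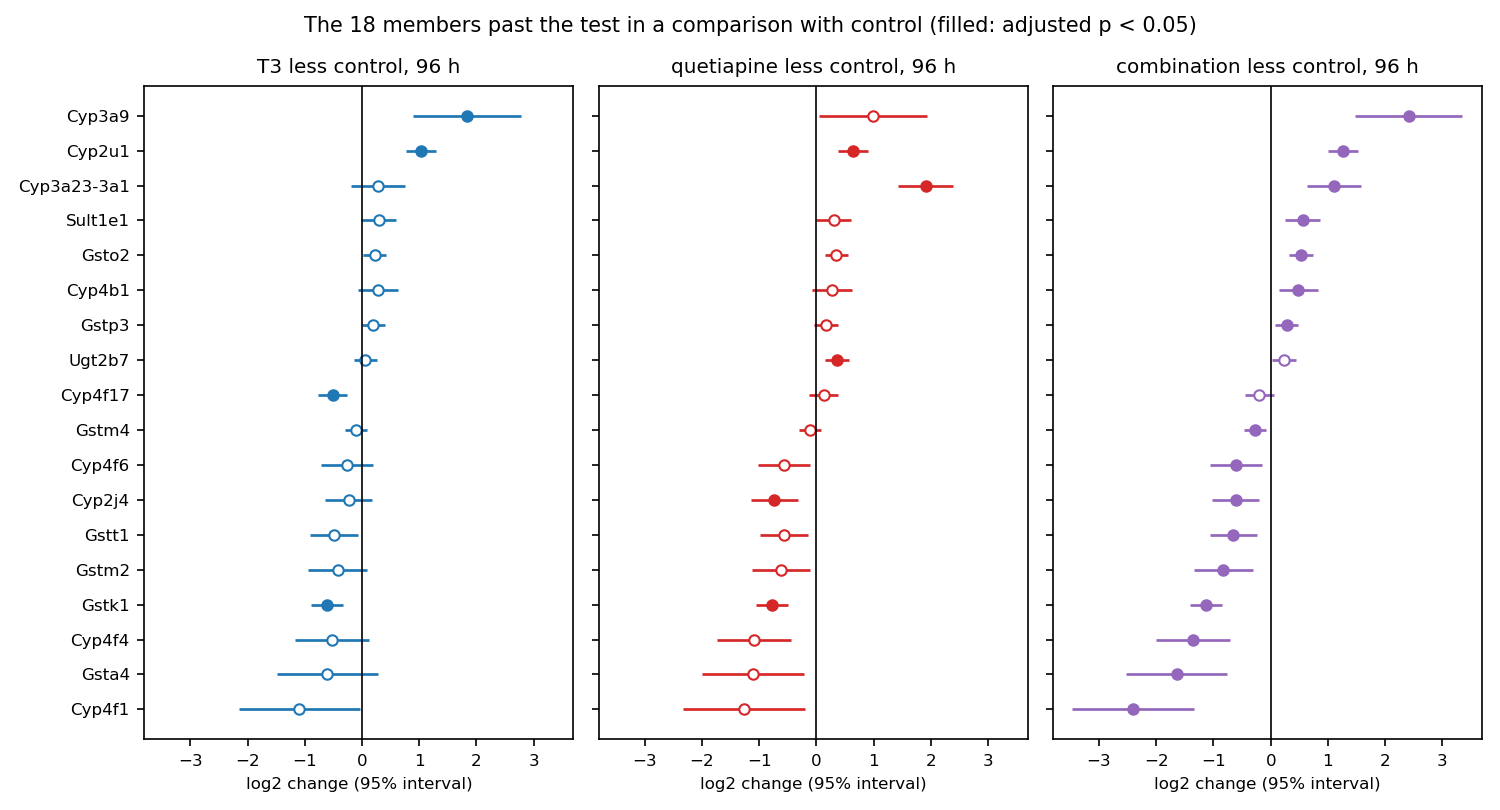
Log2 change at 96 hours, with 95% intervals from limma, of the 18 enzymes that passed the test against control in at least 1 comparison (filled points, adjusted p under 0.05 in that panel; open points, not). Cyp3a9, Cyp2u1 and Cyp3a23-3a1 lie highest and Gstk1, Cyp4f4, Gsta4 and Cyp4f1 lowest with the combination, and Cyp3a23-3a1 is highest with quetiapine alone.

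The Cyp3a subfamily held the largest rises. Cyp3a23-3a1, a steroid 6-beta-hydroxylase that is inducible in rat liver, gave 4.45, 4.49 and 4.50 in control at 96 hours and 6.25, 6.45 and 6.47 with quetiapine. The change was 1.91 (standard error 0.217, adjusted p = 0.000656), or 3.76-fold. The T3 cultures read 4.33, 4.85 and 5.09, a change of 0.28 with a 95% interval of -0.20 to 0.75. With the combination the values were 5.07, 5.82 and 5.87, a rise of 1.11 (standard error 0.217, adjusted p = 0.00293). The quetiapine and the combination arrays lay above all control arrays without overlap, and every combination array lay below every quetiapine array.

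The rise of Cyp3a23-3a1 appeared between 48 and 96 hours. At 48 hours the quetiapine cultures read 4.20, 4.46 and 4.32 beside 4.29, 4.53 and 4.50 in control, with a 95% interval of the change from -0.31 to 0.08. The change at 96 hours exceeded that at 48 hours by 2.02 with quetiapine (adjusted p = 0.00149) and by 1.01 with the combination (adjusted p = 0.0176). Combination less quetiapine was -0.80 (standard error 0.217, adjusted p = 0.0476), a call that was lost on leaving out any of 10 of the 12 arrays, with adjusted p up to 0.146. The interaction, by which the combination departed from adding up the changes of its components, was -1.08 (standard error 0.307, adjusted p = 0.887, and 0.0753 with the block). Apart from the highest array of 6.47 the signal of this probe set stayed at or below the array median. The relatives Cyp3a18 and Cyp3a2 differed from control by -0.08 and 0.16 with quetiapine (adjusted p = 0.650 and 0.317).

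Both T3 and the combination raised the Cyp3a9 signal. At 96 hours it read 6.75, 6.16 and 6.97 in control, 9.04, 8.08 and 8.24 with T3, 8.35, 7.36 and 7.15 with quetiapine and 9.87, 8.97 and 8.27 with the combination. All T3, quetiapine and combination arrays lay above all control arrays. The change was 1.83 with T3 (standard error 0.429, adjusted p = 0.0193) and 2.41 with the combination (standard error 0.429, adjusted p = 0.00165), or 5.31-fold. The call for T3 was lost without T3 replicate 1 (adjusted p = 0.0602) or control replicate 2 (0.0661). With quetiapine it was 1.00 (adjusted p = 0.220, and 0.0301 with the block). Already at 48 hours the T3 arrays read 7.68, 7.95 and 9.43 and the combination arrays 7.28, 7.80 and 9.53 beside 6.68, 6.45 and 7.09 in control, differences of 1.62 and 1.47 (adjusted p = 0.319 and 0.217, and 0.00335 and 0.00227 with the block). Quetiapine at that time gave -0.04.

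Cyp2u1 rose in all 3 treatments at 96 hours. Control cultures read 9.79, 9.80 and 10.04. T3 gave 10.86, 10.86 and 11.01, a change of 1.03 (standard error 0.119, adjusted p = 0.000388), and quetiapine gave 10.76, 10.36 and 10.43, a change of 0.64 (adjusted p = 0.00968). With the combination the signal reached 11.00, 11.15 and 11.27, a change of 1.26 (standard error 0.119, adjusted p = 2.90e-05), which was 0.62 above quetiapine (adjusted p = 0.0117, and 0.0531 or 0.0530 without quetiapine replicate 2 or 3). These calls against control held on leaving out any array. The difference of the combination from T3 was 0.23 with a 95% interval of -0.03 to 0.49. At 48 hours the changes were 0.43, 0.16 and 0.46, and the change with the combination was larger at 96 than at 48 hours by 0.80 (adjusted p = 0.0153, and 0.0520 without combination replicate 1 of 48 hours).

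**Figure D3:**
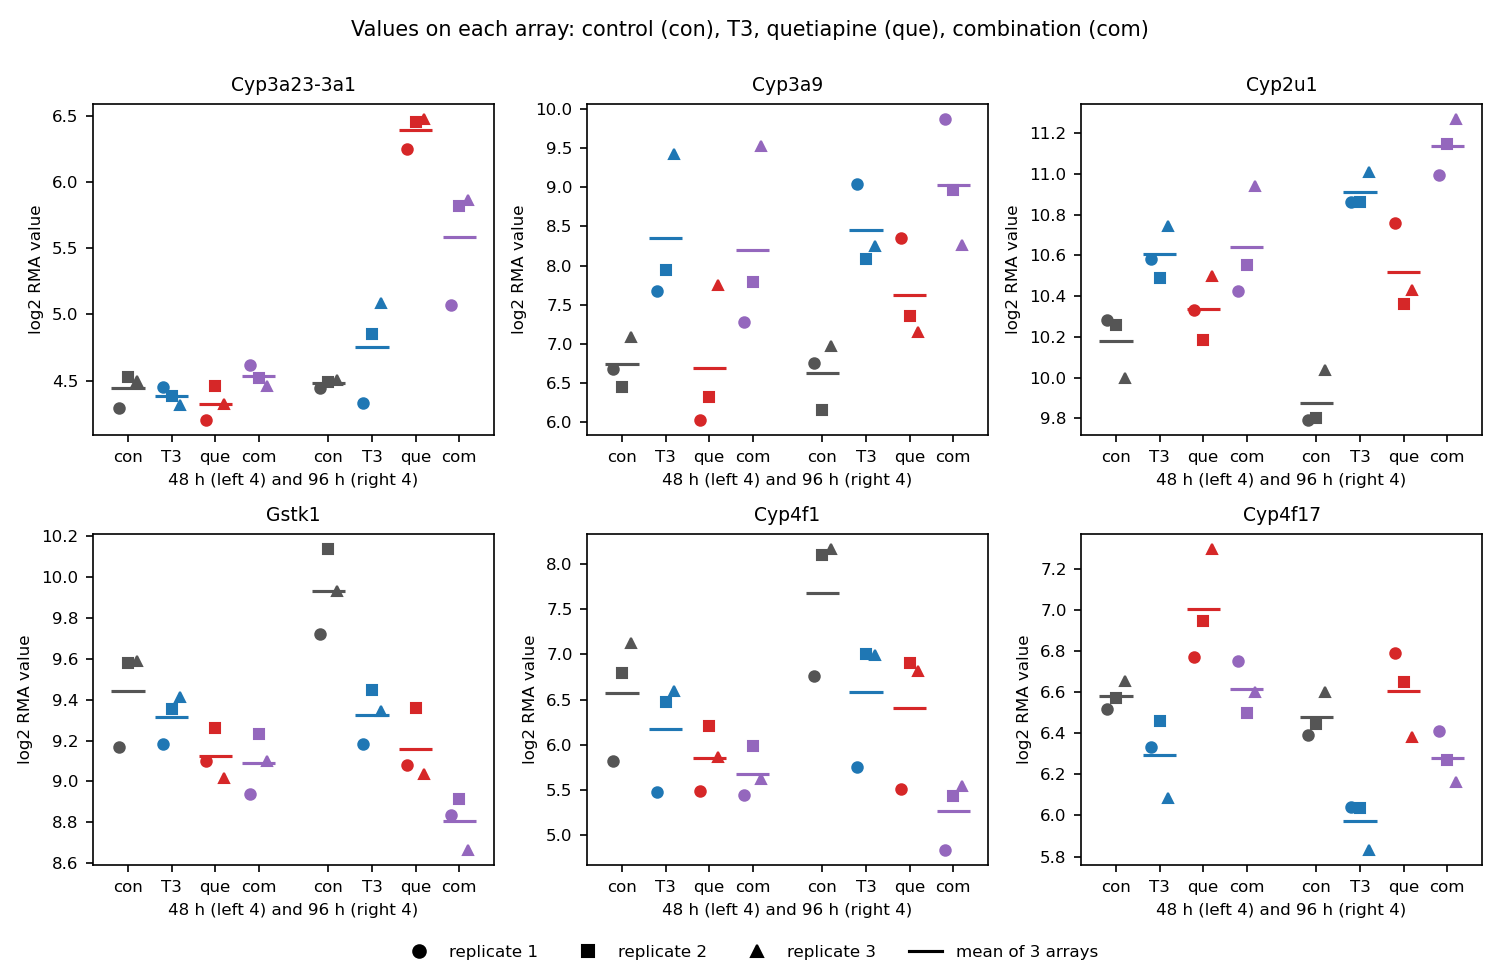
Log2 RMA value on each of the 24 arrays of 6 enzymes in the 8 groups (symbols, replicate number; lines, mean of 3 arrays; the vertical scales differ). Cyp3a23-3a1 is raised with quetiapine at 96 hours and, less, with the combination, Cyp2u1 is highest and Gstk1 lowest with the combination at 96 hours, and Cyp4f17 lies lower with T3 than with quetiapine.

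Enzymes of the Cyp4f subfamily, which hydroxylate leukotriene B4 and arachidonic acid, included the largest fall. Cyp4f1 read 6.76, 8.10 and 8.17 in control at 96 hours and 4.84, 5.44 and 5.55 with the combination, a change of -2.41 (standard error 0.481, adjusted p = 0.00330), or 5.30-fold lower. Cyp4f4 read 5.36, 6.21 and 6.21 in control and 4.35, 4.83 and 4.51 with the combination, a change of -1.36 (adjusted p = 0.00507). For both genes every combination array lay below every control array. With a single compound the difference of Cyp4f1 from control was -1.09 with T3 and -1.27 with quetiapine (adjusted p = 0.182 and 0.164, and 0.000425 and 0.000254 with the block), and the interaction of -0.05 had a 95% interval of -1.54 to 1.45. Cyp4f6 fell with the combination by 0.61 on the log2 scale (adjusted p = 0.0469), a call lost without any of 8 of the 12 arrays, with adjusted p up to 0.142.

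Cyp4f17 was the member of the subfamily that fell with T3 in the fit without the block. At 96 hours it read 6.39, 6.45 and 6.60 in control and 6.04, 6.04 and 5.83 with T3, a change of -0.51 (standard error 0.12, adjusted p = 0.0166, lost at 0.0670 without control replicate 3 and at 0.0668 without T3 replicate 3). Quetiapine gave 6.79, 6.65 and 6.38. Quetiapine cultures lay above T3 cultures by 0.71 at 48 hours (adjusted p = 0.0266) and by 0.64 at 96 hours (adjusted p = 0.0162), and at both times no quetiapine array overlapped a T3 array. The call at 48 hours was lost without any 1 of 5 of the arrays compared, all T3 and 2 quetiapine arrays, with adjusted p up to 0.108. That at 96 hours was lost without any of 4 arrays, with adjusted p up to 0.0748. Cyp4f5, with signals near 4, passed no comparison in the fit without the block.

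Among the other P450 genes, Cyp2j4, an arachidonic acid epoxygenase, read 6.26, 6.71 and 7.09 in control at 96 hours, 5.99, 5.97 and 5.92 with quetiapine and 5.91, 6.19 and 6.14 with the combination. The changes were -0.73 (adjusted p = 0.0461) and -0.61 (adjusted p = 0.0310), lost without any of 9 and of 5 arrays, with adjusted p up to 0.149 and 0.115. Cyp4b1, with a signal of 5.20 below the median, rose with the combination by 0.48 (adjusted p = 0.0389, up to 0.139 without 1 of 6 arrays). Cyp2d4 read 7.28, 8.09 and 7.91 in control and 7.85, 9.14 and 8.90 with T3 at 96 hours, a difference of 0.87 (adjusted p = 0.124, and 0.00152 with the block). Cyp2j3 and Cyp4v3 likewise passed with T3 only with the block, with differences of 0.66 and 0.60 (0.00852 and 0.00525).

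The Cyp1 genes, targets of the aryl hydrocarbon receptor, did not move in common. Cyp1b1 stayed between 5.32 and 5.65 on all 24 arrays, and its 95% intervals against control at 96 hours ran from -0.24 at the lowest to 0.15 at the highest. Cyp1a1 stood out on a single array, with 6.71 in replicate 1 of the combination at 96 hours beside 4.78 and 4.84 in the others and 4.92 to 5.16 in control. Cyp2j10 read 4.02, 4.57 and 5.66 with the combination at 96 hours and 3.65 to 3.81 at 48 hours, a rise over time of 1.02 (adjusted p = 0.00309). Against control at 96 hours it was 0.81 (adjusted p = 0.0631).

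Among the glutathione S-transferases, Gstk1, the mitochondrial and peroxisomal kappa class enzyme, fell with every treatment at 96 hours. Control cultures read 9.72, 10.14 and 9.93, T3 cultures 9.18, 9.45 and 9.34, quetiapine cultures 9.08, 9.36 and 9.03 and combination cultures 8.84, 8.91 and 8.66. No treated array overlapped the controls. The changes were -0.61 (adjusted p = 0.0120), -0.77 (adjusted p = 0.00559) and -1.13 (standard error 0.128, adjusted p = 9.81e-05), and all held on leaving out any array. The combination was lower than T3 by -0.52 (adjusted p = 0.0648, and 0.00383 with the block) and lower than quetiapine by -0.35 (adjusted p = 0.125, and 0.0150 with the block). Control cultures had a mean of 9.44 at 48 hours and 9.93 at 96 hours (adjusted p = 0.305, and 0.00489 with the block), and the combination means were 9.09 and 8.80.

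Gsta4 read 10.20, 11.05 and 11.21 in control at 96 hours and 8.67, 9.36 and 9.50 with the combination, a change of -1.64 (standard error 0.402, adjusted p = 0.00996) or 3.12-fold lower, without overlap. Other transferases that fell with the combination were Gstm2 (-0.83, adjusted p = 0.0202), the theta class Gstt1 (-0.65, adjusted p = 0.0235) and Gstm4 (-0.27, adjusted p = 0.0355). The Gstm2 call was lost without control replicates 2 or 3 or combination replicate 3 (adjusted p up to 0.0728), that of Gstt1 without any of 4 arrays (up to 0.0882) and that of Gstm4 without any of 5 (up to 0.121). Gsto2 rose by 0.53 (adjusted p = 0.00150), from 5.62, 5.43 and 5.37 to 5.96, 6.08 and 5.97, and Gstp3 by 0.28 (adjusted p = 0.0412, up to 0.147 without 1 of 8 arrays). Both lay below the array median.

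For several mu, alpha and theta class genes with high signals the replicates lay as far apart as the treatments. Gstm1 read 11.36, 12.38 and 12.62 in control at 96 hours and 10.11, 11.61 and 11.42 with quetiapine, so that replicate 1 lay about as far below the others as quetiapine lay below control. Over the 8 groups replicate 1 averaged 1.36 below the other 2 for Gstm1, 1.55 for Gstm7, 0.93 for Gsta1 and 0.98 for Gsta4. Replicate 1 was the lowest of the 3 in all 8 groups for 7 of the 13 transferases above the array median and for 15 of all 84 enzymes, and neither replicate 2 nor replicate 3 was so for any enzyme. The share of all genes with this order was not counted. The mu class enzyme Gstm4 and the omega class enzyme Gsto1 did not share this order.

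Within replicates these genes were lower with quetiapine. For Gstm1 the quetiapine culture was below the control of the same replicate by -1.26, -0.78 and -1.20 at 96 hours, and the combination by -1.63, -1.20 and -1.48. The mean changes were -1.08 (adjusted p = 0.331, and 0.000184 with the block) and -1.44 (adjusted p = 0.0836, and 5.96e-06 with the block). Gstm5, Gstm7 and Gsta4 were lower with quetiapine by -0.86, -0.93 and -1.11, and passed only with the block (adjusted p = 0.000286, 4.60e-05 and 4.75e-05). With T3 the differences were -0.60 for Gsta4 (adjusted p = 0.401, and 0.00102 with the block), -0.32 for Gstm1 (0.799, and 0.0594 with the block), 0.18 for Gstm5 (0.848, and 0.213) and 0.03 for Gstm7 (0.989, and 0.851). Gsta1 differed between compounds, with 10.88, 12.22 and 12.51 in T3 cultures, 9.53, 10.74 and 10.45 in quetiapine cultures and 10.72, 11.23 and 11.29 in control, differences of 0.79 and -0.84 that passed with the block (adjusted p = 0.00828 in each). The direct difference of quetiapine from T3 for Gsta1 was -1.63 (adjusted p = 0.0979, and 0.000315 with the block).

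Astrocyte markers showed the same order of replicates. The mean signal of 10 astrocyte markers was lowest in replicate 1 in all 8 groups, by 0.61 on average, and at 96 hours it was 10.37, 10.80 and 10.86 in control, 9.58, 10.42 and 10.19 with quetiapine and 9.45, 10.07 and 10.01 with the combination. T3 cultures read 10.03, 10.67 and 10.73. The mean of the OPC markers ran opposite between replicates, with replicate 1 highest in all 8 groups by 0.29 on average. The mean of 7 mature oligodendrocyte markers was also lowest in replicate 1 in every group at 96 hours. There it read 9.43, 9.92 and 9.89 in control and 11.74, 12.94 and 13.20 with the combination. In control at 48 hours replicate 1 was highest for these markers, with 8.72, 8.52 and 8.60. Lower marker values at 96 hours were not limited to the astrocyte list. The mean of the 6 OPC markers differed from the control of the same replicate by -0.53, -0.23 and -0.47 with quetiapine, by -0.86, -0.70 and -0.77 with the combination and by -0.48, -0.43 and -0.43 with T3. Of these 6 markers 2 fell with quetiapine (3 with the block), 3 fell with the combination (5 with the block) and 2 fell with T3 (5 with the block). The mean of 9 neuron markers was also lower in all 3 pairs, by -0.33, -0.18 and -0.35 with quetiapine and by -0.27, -0.18 and -0.36 with the combination. Single neuron markers went both ways with the combination, where 2 rose and 2 fell (2 and 3 with the block). With quetiapine 0 rose and 1 fell (0 and 2 with the block). In the test 0 of the 10 astrocyte markers rose and 1 fell with quetiapine (0 and 7 with the block). With the combination 1 rose and 5 fell (1 and 8 with the block), and with T3 1 rose and 1 fell (1 and 5). The shares of all genes at 96 hours were 4.21% higher and 3.04% lower with quetiapine (8.96% and 12.5% with the block). They were 15.2% and 20% with the combination (19.9% and 27.6%) and 6.58% and 8.08% with T3 (11.9% and 18.2%). Of 7 mature oligodendrocyte markers, all rose with the combination at 96 hours and 5 did so with each single compound. In cultures of mixed cells fewer cells of a type and less RNA per cell cannot be told apart, and the part of these cell types in the changes of the transferases and of Cyp4f1, Cyp4f4 and Sult1a1 was not tested.

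**Figure D4:**
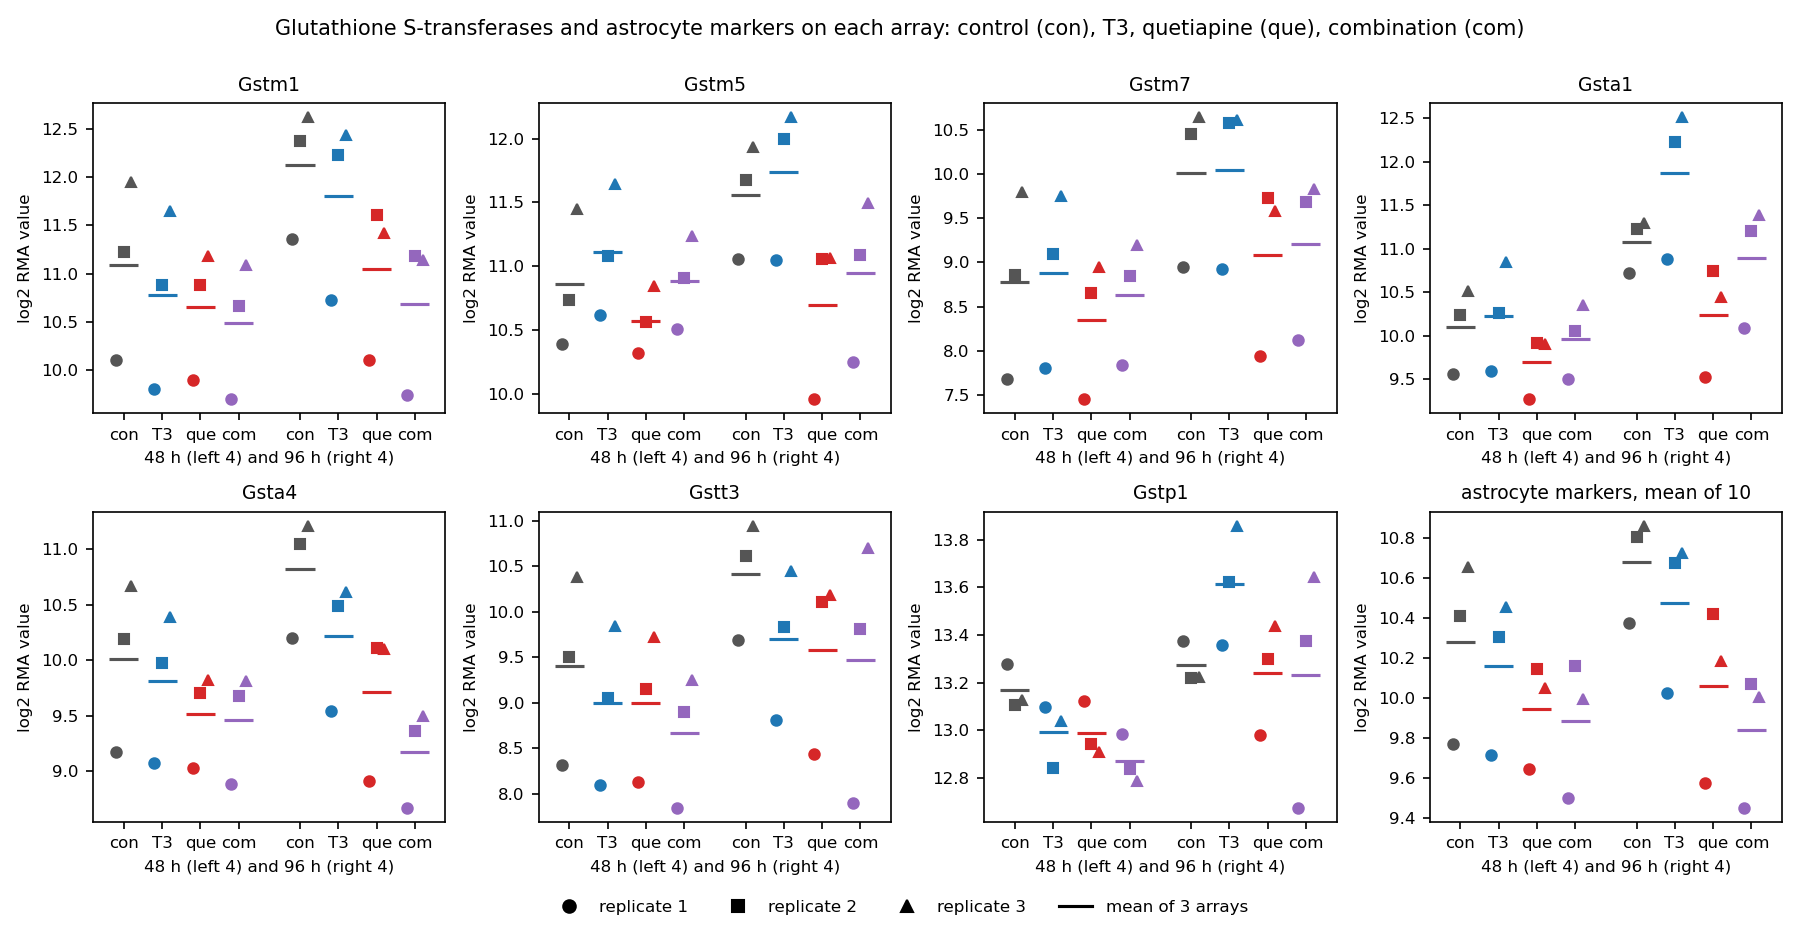
Log2 RMA value on each of the 24 arrays of 7 glutathione S-transferases and of the mean of 10 astrocyte markers in the 8 groups (symbols, replicate number; lines, mean of 3 arrays; the vertical scales differ). Replicate 1, the circles, is lowest in every group in all panels except that of Gstp1, and the means of Gstm1, Gsta4 and the astrocyte markers are lower with quetiapine and the combination than with control at 96 hours.

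Gstp1, the member with the strongest signal, passed no test against control without the block. It read 13.38, 13.22 and 13.22 in control at 96 hours, 13.36, 13.62 and 13.86 with T3, 12.98, 13.30 and 13.44 with quetiapine and 12.67, 13.37 and 13.64 with the combination. The 95% interval of the change was -0.15 to 0.82 with T3, -0.52 to 0.45 with quetiapine and -0.53 to 0.44 with the combination. At 48 hours the combination gave -0.30 (adjusted p = 0.0890, and 0.00556 with the block). In T3 cultures it rose from 48 to 96 hours by 0.62 (adjusted p = 0.0443), a call that was lost without any of 14 of the 24 arrays, with adjusted p up to 0.190. Its signal lies near the top of the range of the array, where a change may be compressed.

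Among sulfotransferase and UDP-glucuronosyltransferase genes only 1 of each kind passed a test against control without the block. The estrogen sulfotransferase Sult1e1 rose with the combination at 96 hours by 0.56 (standard error 0.138, adjusted p = 0.0106), from 3.46, 3.88 and 3.47 to 4.07, 4.33 and 4.09, all far below the median. Ugt2b7, which glucuronidates steroids and drugs, rose with quetiapine by 0.36 (adjusted p = 0.0469), from 4.91, 5.18 and 5.01 to 5.49, 5.35 and 5.33, a call lost without any of 10 of the 12 arrays, with adjusted p up to 0.164. Sult1a1 read 6.35, 8.70 and 7.66 in control at 96 hours and 6.09, 6.44 and 6.40 with the combination, a change of -1.26 (adjusted p = 0.115, and 0.00609 with the block). Its replicate 1 lay 1.14 below the others on average. Sult4a1 differed from control by -0.37 with quetiapine (adjusted p = 0.412, and 0.00826 with the block). Sult1d1 differed by 0.78 with T3 at 96 hours (adjusted p = 0.0903, and 0.00294 with the block). Sult2b1, which sulfates cholesterol and pregnenolone, and the hydroxysteroid sulfotransferases Sult2a1, Sult2a2 and Sult2a6 passed no test against control in that fit.

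Direct comparisons of the treatments gave few calls in the fit without the block. Against T3, quetiapine was higher for 1 enzyme at 48 hours (Cyp4f17) and for 2 at 96 hours (Cyp3a23-3a1 and Cyp4f17) and lower for 0, beside 0.696% and 1.01% of genes higher and 1.46% and 2.3% lower. With the block 1 enzyme was higher and 10 were lower at 48 hours (5.14% and 6.91% of genes), and 2 were higher and 14 lower at 96 hours (6.66% and 7.77%). The latter included Gsta1, Cyp4v3 (-1.20), Cyp2d4 (-1.20) and Cyp2j3 (-1.11). Against T3, the combination gave 0 calls at 48 hours (0% of genes higher and 0.0281% lower; 2 enzymes at an unadjusted p under 0.05 and 0 with the block). At 96 hours it gave 0 in the fit without the block (1.29% and 1.04% of genes) and 1 higher and 12 lower with it (6.06% and 8.86%), the lowest being Cyp4f1 (-1.31) and Gstm1 (-1.11). Against quetiapine, the combination gave 0 calls at 48 hours (0.992% and 0.331% of genes; 5 enzymes at an unadjusted p under 0.05). With the block 4 were higher and 0 lower (4.52% and 5.49%). At 96 hours the calls were Cyp2u1 higher and Cyp3a23-3a1 lower (4.36% and 4.87%), or 9 and 6 with the block (10.1% and 13.7%). The interaction called 0 enzymes at either time with limma in both fits. Without the block it called 0% of genes at 48 hours, and 0.00703% higher and 0.0422% lower at 96 hours. With the block the shares were 0% at 48 hours, and 0.0563% higher and 0.309% lower at 96 hours. In the fit without the block 1 enzyme at 48 hours and 2 at 96 hours had an unadjusted p under 0.05.

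Time itself was tested in 1 fit of all 24 arrays. From 48 to 96 hours 0 enzymes were called in control cultures (0.0141% of genes in each direction), where 12 had an unadjusted p under 0.05 and 12 rose with the block (3.47% of genes). These 12 included Gstm7 (1.24), Cyp4f1 (1.10), Gstm1 (1.03), Gstt3 (1.02), Gsta1 (0.98) and Gsta4 (0.81). In T3 cultures Gsta1 rose by 1.64 (adjusted p = 0.0316) beside Gstp1 (3.36% of genes higher and 4.97% lower), and with the block 18 rose and 1 fell (8.83% and 15.3%). The Gsta1 call was lost without T3 replicate 1 or 2 of 48 hours or T3 replicate 2 or 3 of 96 hours, with adjusted p up to 0.172. In quetiapine cultures Cyp3a23-3a1 alone was called (2.58% and 0.844% of genes), with 4 rising with the block (6.51%). In combination cultures Cyp3a23-3a1, Cyp2j10, Sult1e1 and Cyp2u1 rose and Gstm4 fell (11.3% and 15.9%). The Cyp2u1 call was lost without combination replicate 1 of 48 hours or 3 of 96 hours (adjusted p = 0.0767 and 0.0566), and that of Gstm4 without any of 14 arrays, with adjusted p up to 0.192. In these cultures with the block 14 rose and 4 fell (15.5% and 23.6%).

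Genes that serve these enzymes were counted in 7 lists. As a scale for the counts at 96 hours, T3 raised 6.58% of all genes and lowered 8.08%. Quetiapine raised 4.21% and lowered 3.04%, or 8.96% and 12.5% once the fit held the replicate term. The combination raised 15.2% and lowered 20%. Whether any list departs from these shares was not tested. Of 14 P450 partners and heme genes, 4 rose and 0 fell with T3 at 96 hours, 2 and 2 with quetiapine, and 6 and 3 with the combination. Por, which passes electrons to P450 enzymes, rose by 0.58 with the combination at 48 hours (adjusted p = 0.00574) and by 0.24 at 96 hours (adjusted p = 0.0318). The heme synthesis genes Alas1 and Cpox rose by 0.98 and 0.96 with the combination at 96 hours (adjusted p = 0.00114 and 0.00105), whereas the final enzyme Fech fell with quetiapine by 0.41 (adjusted p = 0.0348). The heme oxygenase Hmox1 fell with quetiapine by 1.43 and with the combination by 1.25 (adjusted p = 0.0264 and 0.0135), and Hmox2 rose by 0.57 and 0.77 (adjusted p = 0.0230 and 0.000923).

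Of the receptors that control these enzymes in liver, Nr1i2 had a mean signal of 4.73, Nr1i3 4.50 and Ahr 5.55, all below the median. The levels of other receptors and partners are not given here. Nr1i2 differed from control by 0.087 with quetiapine at 96 hours (adjusted p = 0.607). Of 21 receptors and partners, 0 rose and 1 fell with T3, and 3 rose and 1 fell with the combination. With quetiapine 0 passed in limma (0 rose and 2 fell with the block). Arnt2, a partner of Ahr-type proteins in neural cells, fell by 0.90 with T3 and 1.24 with the combination (adjusted p = 0.00570 and 0.000260).

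Of 13 genes that supply cosubstrates, 1 rose with T3 at 96 hours, 0 passed with quetiapine (0 rose and 2 fell with the block) and 1 rose and 1 fell with the combination. Papss2, which makes the sulfate donor, rose at 48 hours with T3, quetiapine and the combination by 0.57, 0.89 and 1.26 (adjusted p = 0.0306, 0.0117 and 0.000146). Ugp2, on the path to the glucuronic acid donor, fell with the combination at 96 hours by 0.88 (adjusted p = 0.00275).

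Of 27 other drug metabolism enzymes, 6 rose and 2 fell with T3 at 96 hours, 1 and 4 with quetiapine, and 7 and 8 with the combination. Aldh1a1, which makes retinoic acid, rose by 4.02 with T3 (adjusted p = 0.00461) and the carbonyl reductase Cbr1 by 1.34 with the combination (adjusted p = 3.08e-05). The flavin monooxygenase Fmo1 fell by 2.72 and the quinone reductase Nqo1 by 1.59 with the combination (adjusted p = 0.000352 and 0.00724). Mgst1, a membrane glutathione transferase outside the rule, fell with quetiapine by 1.87 (adjusted p = 0.0200), and Mgst2 rose with T3 by 1.16 (adjusted p = 0.00125).

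Of 9 drug transporters, 0 rose and 1 fell with T3, 0 and 2 with quetiapine, and 1 and 3 with the combination. Slco1c1, a thyroid hormone transporter, fell with T3 and the combination by 1.51 and 1.60 (adjusted p = 0.00125 and 0.000229), and the efflux pump Abcc4 with quetiapine by 0.86 (adjusted p = 0.00878). Of 16 P450 enzymes of other families 3 rose and 1 fell with the combination, and 2 rose with each single compound. These included Cyp46a1, the cholesterol 24-hydroxylase of brain, which rose by 1.12 with the combination (adjusted p = 0.000381), and Cyp7b1, an oxysterol hydroxylase, which fell by 1.56 (adjusted p = 0.0299). Of 16 steroid dehydrogenases and reductases 2 rose and 1 fell with T3, 2 and 0 with quetiapine, and 2 and 2 with the combination, the largest being Hsd17b7, with a role in both estradiol and cholesterol synthesis, at 2.32 with the combination (adjusted p = 3.25e-05) and 1.92 with quetiapine (adjusted p = 0.000749).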

How the data were processed

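The authors deposited log2 values, made by RMA from the signals of a 1-colour Affymetrix rat array, and these were used as they stand; RMA and limma are named in the submitters' processing notes without versions. A genome build, not given in the sources used here, was not needed, since neither coordinates nor sequences were used. Of 31099 probe sets 57 controls were left out, and 20826 of the 31042 tested carried a single symbol.

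Groups came from the deposited labels. Limma 3.58.1 in R 4.3.3 was fitted to the 12 arrays of each time with 4 group means and no replicate term, and to all 24 arrays for comparisons between times and the test of any difference. Variances were shrunk by empirical Bayes, and p values were adjusted by the method of Benjamini and Hochberg over 31042 probe sets in each of 22 comparisons. An enzyme was called at an adjusted p under 0.05 with no limit on the fold, and shares of all genes refer to 14217 genes represented by the same rule. The script was tested on simulated data. Figures were drawn with matplotlib.

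By the design text in the labels all conditions were run in each of 3 biological replicates. Deviations from the group means correlated at 0.430 to 0.777 between same-numbered arrays at 48 hours and at 0.309 to 0.690 at 96 hours (different numbers, -0.681 to -0.00478 and -0.583 to 0.243), so the numbers pair the arrays. Alternatives were the replicate as a fixed block, arrays centred on their medians, a filter at a mean of 6.47, priors with a trend and robust estimation, a fold over 1.5, the probe set of highest variance, 1 fit of all 24 arrays and leaving out each array.

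Enzymes were named in the text where they were among the 10 largest called rises or falls against control or the 5 largest in other comparisons, the 4 highest of a family, above the array median, or 1 of Cyp3a23-3a1, Cyp1b1, Gstp1, Gstm1, Gsta4, Sult1a1 and Ugt1a6, of which the last has no single-symbol probe set here. Further enzymes, such as those called only with the block, were chosen after their values were seen. The members, the 7 lists of related genes and the marker lists were chosen with earlier results of these data known. Precision is limited by the number of arrays.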

Additional observations from a re-analysis of the deposited data

Results flagged for a closer look

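The treatment effect at 96 hours differed from that at 48 hours, in a limma test of the difference itself with p values adjusted over all probe sets, for 4 enzymes. For Cyp3a23-3a1 the difference was 2.02 on the log2 scale with quetiapine (adjusted p = 0.00149) and 1.01 with the combination (adjusted p = 0.0176, and 0.0615 or 0.0550 without combination replicate 2 or 3 of 96 hours). With the combination it was 0.80 for Cyp2u1 (adjusted p = 0.0153) and -0.77 for Gstk1 (adjusted p = 0.0160, and 0.0512 without combination replicate 2 of 48 hours). For Sult2a2, whose signal near 3 is among the lowest of the set, it was -0.32 (adjusted p = 0.0353), and this call was lost without any of 11 of the 24 arrays, with adjusted p up to 0.0799. The share of all genes with such a difference was 0.134% higher and 0% lower with quetiapine, and 4.91% higher and 3.26% lower with the combination. No cause was tested.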

How the results depend on the processing

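The main limit was the difference between the 3 replicates, which the fit without the replicate leaves in its spread. With the replicate block the number of enzymes called became 7 instead of 0 for T3 against control at 48 hours, 4 instead of 0 for quetiapine and 16 instead of 0 for the combination, and at 96 hours 14 instead of 4 for T3 and 21 instead of 5 for quetiapine. It became 11 instead of 1 for quetiapine against T3 at 48 hours and 16 instead of 2 at 96 hours, 13 instead of 0 for the combination against T3 at 96 hours, 4 instead of 0 and 15 instead of 2 for the combination against quetiapine at 48 and 96 hours. Between the times it became 12 instead of 0 in control, 19 instead of 2 with T3, 4 instead of 1 with quetiapine and 18 instead of 5 with the combination, and for the difference of the changes between times 2 instead of 1 with quetiapine and 15 instead of 4 with the combination. All 43 single changes that passed without the block also passed with it, so the block ended no call.

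Leaving out probe sets below the median removed 61 of the 84 enzymes, and the counts became 1 and 2 for the combination at 48 hours and quetiapine at 96 hours against control, 7 for the combination at 96 hours, 1 for quetiapine against T3, 1 for the combination against T3 and 1 against quetiapine at 96 hours, 4 and 0 for 96 against 48 hours with T3 and quetiapine, 0 and 2 for the difference of the changes with quetiapine and the combination, and 13 for any difference. Centring the arrays gave 1 for the combination against control at 48 hours, 1 against quetiapine at 96 hours and 1 for 96 against 48 hours with T3. Priors with a trend and robust estimation gave 2 for the combination against control at 48 hours. Of the 43 single changes centring ended 7 calls, for Cyp2j4 with quetiapine, Cyp4f6 and Gstm4 with the combination, Cyp3a23-3a1 between the combination and quetiapine, Gstp1 and Gstm4 over time and Sult2a2, with adjusted p of 0.0503 to 0.0731, and the trend ended 2, for Ugt2b7 (0.0507) and Gstm4 over time (0.0538). A fit of all 24 arrays gave 2 for the combination against control at 48 hours, 6 for quetiapine against T3 and 2 for the combination against T3 at 96 hours. A fold change over 1.5 left 2 for 96 against 48 hours with the combination. The probe set of highest variance moved no count by over 1.5 times, and 0 changes reversed.

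Without 1 array the counts ran from 0 to 2 for the combination against control and from 0 to 1 for quetiapine against T3 at 48 hours. At 96 hours they ran from 3 to 5 for T3, 3 to 8 for quetiapine and 10 to 15 for the combination against control, 1 to 6 for quetiapine against T3, 0 to 2 for the combination against T3 and 0 to 3 for the combination against quetiapine. Between the times they ran from 0 to 9 with T3, 1 to 2 with quetiapine and 3 to 11 with the combination, from 2 to 6 for the difference of the changes with the combination, and from 19 to 28 for any difference. The highest of 8 for quetiapine against control came without control replicate 1, the 6 for quetiapine against T3 without T3 replicate 1, the 10 for the combination without combination replicate 3, and the 9 and 11 over time with T3 and the combination without replicate 1 of that treatment at 96 hours.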
